A study of Mus musculus with 12 samples.

Results

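Quercetin feeding was compared with the control diet in the ileum of wild-type mice, using the 6 wild-type arrays among the 12 arrays of the series, 3 per diet. The members were chosen by title: the arrays of wild-type ileum with quercetin, and the arrays of wild-type ileum without it. All mice of both groups were male C57BL/6 animals of 6 to 8 weeks with an intact cytochrome P450 reductase gene. They ate a soya-free powdered RM3 diet for 14 days. The control group then stayed on that diet, and the quercetin group received it with 6.2 g of quercetin per kg, described as a dose of 7 mg per mouse. Tissue was taken after 24 h. The ileum was defined as the last of 3 equal lengths of small intestine, and the scraped epithelial layer gave total RNA. Each array carried the RNA of 3 mice pooled together, so the replicates are pools and the spread between single mice was not measured. The other 6 arrays, from POR-null mice (null for the reductase) on the same diets, entered the fit of the variance and are given beside wild type where they bear on a result.

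Quercetin is a plant flavonol. In the intestinal lining it is taken up by enterocytes, joined to glucuronic acid, sulfate or methyl groups, and partly pumped back into the gut lumen by efflux transporters. It is known as a ligand of the aryl hydrocarbon receptor, as an activator of the Nrf2 antioxidant response in cell culture, and as an inhibitor of several kinases and of xanthine oxidase. The ileal lining renews itself from stem cells in the crypts, absorbs bile acids and vitamin B12, and lies next to lymphoid tissue.

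Values were log2 expression levels as deposited, 1 per probe set and array, so that a difference of 1 is a doubling. Differences are given as quercetin minus control with the standard error (SE) of limma's fit, and a gene passed when its p-value, adjusted by Benjamini-Hochberg over 22626 probe sets, was under 0.05. Where a gene had several probe sets the brightest stood for it, which left 12393 genes. Enterocyte and ileal markers were present on all 6 arrays. The bile acid binding protein gene Fabp6 read 12.33 to 12.76, villin (Vil1) 12.11 to 12.32 and the fatty acid binding protein gene Fabp2 13.16 to 13.62. Slc10a2, the ileal bile acid uptake transporter, varied more, from 5.22 to 6.70 on control and from 5.32 to 7.28 on quercetin.

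Control array 2 lay apart from the other wild-type arrays. On the first principal component of these 6 arrays, which held 35.9% of their variance, it stood at 24.06, control arrays 1 and 3 at -3.29 and 7.76, and quercetin arrays 1 to 3 at -3.53, -11.50 and -13.50. The array pair with the highest correlation was control array 1 with quercetin array 1 (r = 0.9954 over probe sets), and that with the lowest was control array 2 with quercetin array 3 (r = 0.9897). The mean level of 26 genes typical of the proximal small intestine, each centred on its mean over the 12 arrays, was 0.52 on control array 2, -0.06 and -0.09 on the other controls, and 0.23, -0.24 and -0.09 on quercetin. Control array 2 was the highest of the 6 arrays for 19 of these 26 genes, against 20.2% of all genes. Its part in the differences below was not tested beyond leaving it out. Values without it are given where stated. Every other difference includes it, and some of those also rest on it.

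On quercetin 1 gene rose past the threshold, Gas5. It makes a long non-coding RNA with small nucleolar RNAs in its introns, and its spliced transcript is known to accumulate when growth or translation slows. Its brightest probe set read 7.81, 7.42 and 7.59 on control arrays 1 to 3 and 8.83, 8.72 and 8.80 on quercetin arrays 1 to 3. The quercetin arrays lay close together and above every control array. The difference was 1.18 ± 0.12, a 2.26-fold rise (limma adjusted p = 0.00293). Without control array 2 it was 1.08 ± 0.12 and still passed (limma adjusted p = 0.0194). The probe set was 1 of 22626 tested, or 0.00442%, and the count was again 1 (0.00442%) without control array 2, while 2468 and 1861 probe sets had an unadjusted p under 0.05. The count depended most on control array 1: without it 59 probe sets passed, against 1 to 3 without any other array, and the 59 compared quercetin with control arrays 2 and 3 alone. The 3 dimmer Gas5 probe sets had the same order, with all quercetin arrays above all controls, and differed by 0.93, 0.73 and 0.41 without passing (limma adjusted p = 0.0577, 0.175 and 0.266). Averaged over its 4 probe sets the gene differed by 0.81, which did not pass (limma adjusted p = 0.0561). The POR-null arrays read 8.30 to 8.61 on control and 8.35 to 8.72 on quercetin. All 6 thus lay above the wild-type controls and at or below the wild-type quercetin arrays.

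**Figure D1:**
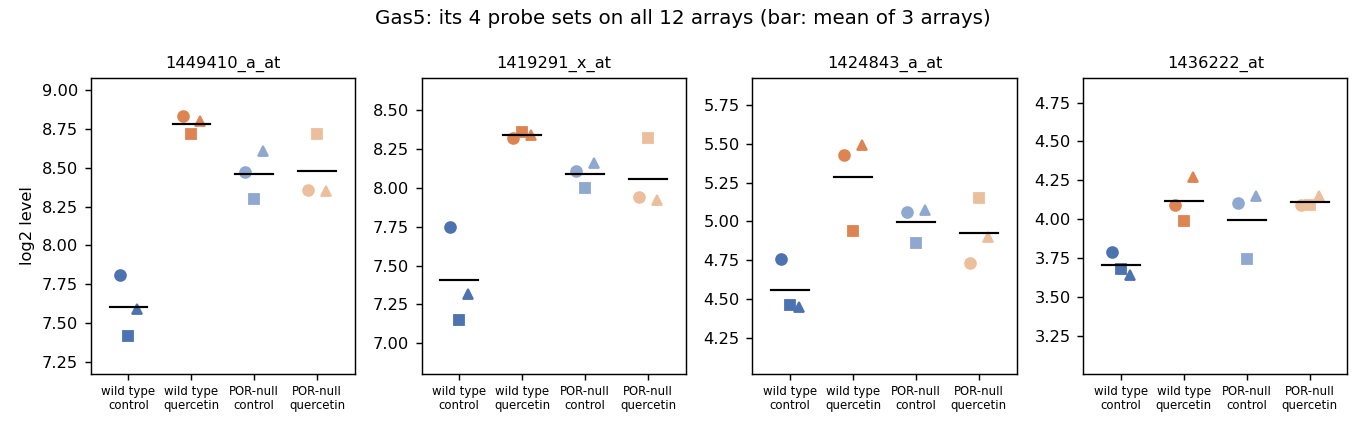
Log2 level of each of the 4 Gas5 probe sets (vertical axis) on every array, by group, with symbols for the array number (circle 1, square 2, triangle 3) and bars for the mean of 3 arrays. In each probe set the 3 wild-type quercetin arrays lie above the 3 wild-type control arrays, and in the brightest the POR-null arrays lie from 8.30 to 8.72 on both diets.

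Gas5 is a textbook member of the transcripts that begin with a run of pyrimidines, a feature shared with ribosomal protein mRNAs. The bases around its start sites and that of Rps18, the ribosomal gene with the second largest difference, are shown as examples. Rps19, with the largest, had no such run in any window and is not shown. Each window holds 20 bases before the RefSeq start and 20 from it (GRCm38.p6), 5′ to 3′ on the gene's strand. Capitals mark a run of at least 5 C or T that opens with C within 3 bases of the start.
Gas5, chr1:161035146-161035185, plus strand: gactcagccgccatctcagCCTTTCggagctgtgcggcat
Gas5, other start, chr1:161034581-161034620, plus strand: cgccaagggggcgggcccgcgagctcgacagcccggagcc
Rps18, chr17:33955646-33955685, minus strand: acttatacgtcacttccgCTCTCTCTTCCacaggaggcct
The downstream Gas5 start had a run of 6 bases, the upstream one had none, and Rps18 had a run of 11. Such a run was found for 15 of 38 ribosomal protein genes with a start in the RefSeq table (39.5%), 4 of 20 snoRNA host genes (20%), 3 of 32 hnRNP and splicing factor genes (9.38%) and 1468 of 9887 measured genes (14.8%). A match describes these letters at the annotated start only, and Rps19 and Rpl6 had none in the windows searched.

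The 11 genes with the next smallest p among those higher on quercetin did not pass, and for each of them the 3 quercetin arrays lay above the 3 controls, as was so for 650 of 12393 genes (5.24%). Cd79b, which passes on the signal of the B cell receptor, read 6.75, 6.83 and 7.15 on control and 7.54, 7.74 and 7.87 on quercetin, a difference of 0.81 ± 0.13 (limma adjusted p = 0.0577). Hnrnpd, which binds AU-rich elements and controls mRNA decay, read 7.92, 7.61 and 7.88 on control and 8.57, 8.57 and 8.58 on quercetin (0.77 ± 0.12, limma adjusted p = 0.0577). The quercetin arrays of Hnrnpd were nearly identical. Apoe, the apolipoprotein made by macrophages and liver, read 6.04, 6.10 and 6.38 on control and 6.79, 6.84 and 7.18 on quercetin (0.76 ± 0.16). Several of the rest serve ribosome or RNA metabolism. They were Nop53, a ribosome assembly factor (0.43 ± 0.07), Exosc9, a subunit of the RNA exosome (0.48 ± 0.09), Osgep, which modifies transfer RNA (0.41 ± 0.07), and the ribosomal protein genes Rps19 (0.48 ± 0.10) and Rps4l (0.42 ± 0.08). The remaining genes were Bcl7b, a subunit of the SWI/SNF chromatin remodelling complex (0.41 ± 0.07), Adh5, which oxidises glutathione-bound formaldehyde (0.44 ± 0.08), and Gaa, the lysosomal acid glucosidase (0.33 ± 0.07). Nop53 had a dimmer probe set at -0.11, and the second probe set of Gaa differed by -0.01.

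The 12 genes with the smallest p among those lower on quercetin did not pass either, and in each the quercetin arrays lay below the controls, as for 983 of 12393 genes (7.93%). Gda, guanine deaminase, which turns guanine into xanthine, read 7.43, 7.55 and 7.39 on control and 6.81, 6.82 and 6.69 on quercetin. Its difference was -0.68 ± 0.10 (limma adjusted p = 0.0577). Deptor, an inhibitor bound to mTOR, read 8.16, 7.92 and 8.01 on control and 7.25, 7.39 and 7.59 on quercetin (-0.62 ± 0.12), and its 2 other probe sets were lower by a smaller amount (-0.37 and -0.28). The largest of the 12 differences belonged to the dim interferon-inducible gene Ifi202b, at 4.56, 4.72 and 4.54 on control and 3.83, 3.52 and 3.56 on quercetin (-0.97 ± 0.19). Aqp7, a water and glycerol channel, differed by -0.61 ± 0.13, and its second probe set by -0.60. Socs3, the feedback inhibitor of cytokine signalling through STAT3, differed by -0.50 ± 0.11, Strn, a scaffold of a protein phosphatase complex, by -0.50 ± 0.11, and Sema7a, a membrane-anchored semaphorin, by -0.49 ± 0.11. Smaller differences were those of P4ha1, a collagen prolyl hydroxylase (-0.43 ± 0.09), Fam3b, a secreted protein (-0.41 ± 0.08), Dnaja4, a co-chaperone (-0.37 ± 0.08), Pccb, a subunit of propionyl-CoA carboxylase (-0.34 ± 0.07), and Ehd2, a membrane-shaping ATPase of caveolae (-0.33 ± 0.06). On Ehd2 the arrays of each diet were especially tight, at 6.85 to 6.88 on control and 6.52 to 6.55 on quercetin. Further probe sets of these genes differed by less. For Ehd2 they were at -0.19 and -0.07, for Dnaja4 at -0.11 and -0.13, and for Socs3 at -0.39 and -0.26. The second probe set was at -0.03 for P4ha1, at -0.13 for Strn and at -0.15 for Sema7a.

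**Figure D2:**
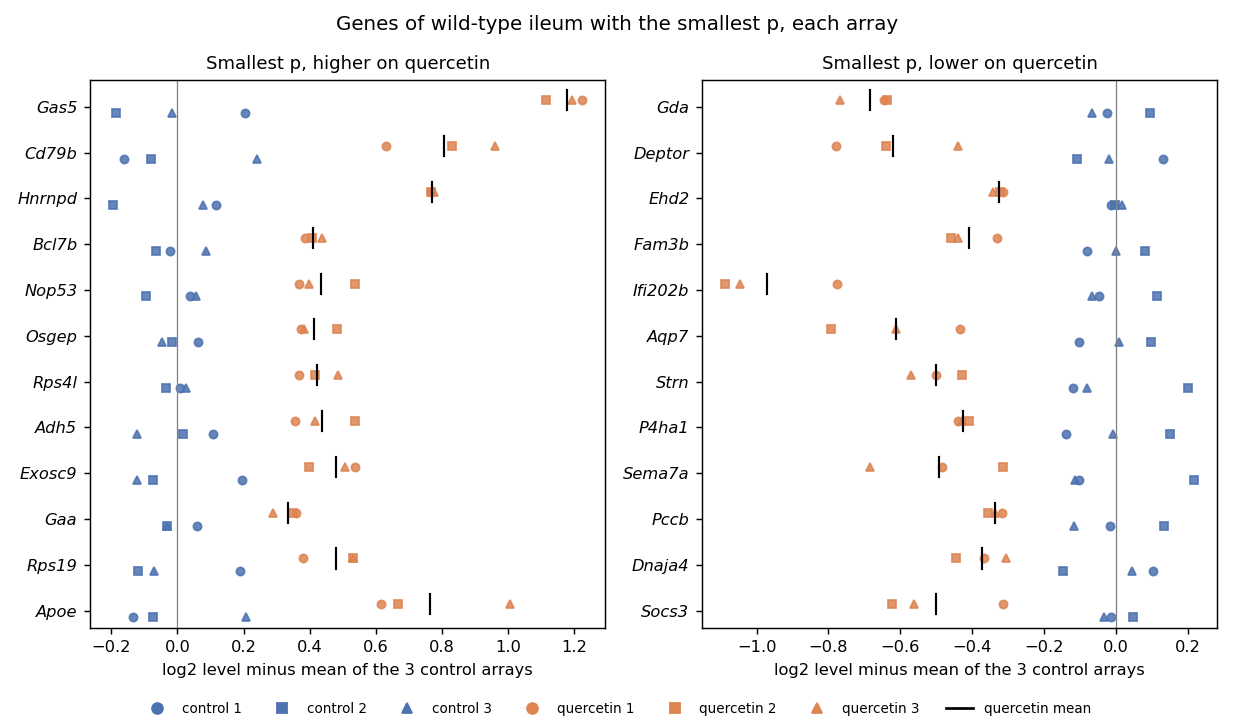
Log2 level minus the mean of the 3 control arrays (horizontal axis) for the 12 genes with the smallest p in each direction. Symbols mark the array number and the black bar is the quercetin mean; in all 24 genes the quercetin arrays lie on one side of the controls, and Gas5 is the only gene that passed the adjusted threshold.

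All 24 genes kept their sign without control array 2, and for 20 of them the difference became smaller, the ratio of the new value to the old running from 0.781 to 1.2. The exceptions included Deptor (-0.68 ± 0.14) and Dnaja4 (-0.45 ± 0.08). Leaving that array out brought other genes to the front, none of which passed. On the higher side, Tmed4, which helps carry proteins from the endoplasmic reticulum, read 9.06, 9.91 and 9.34 on control and 9.84, 9.75 and 9.90 on quercetin. Control array 2 was as high as the quercetin arrays, and the difference was 0.39 ± 0.18 with it and 0.63 ± 0.15 without it. Hexdc, a hexosaminidase, went from 0.33 to 0.49 in the same way, and Emsy, a chromatin regulator, from 0.28 to 0.40. Rabggtb, which attaches lipids to Rab proteins (0.35), Cfap36 (0.34) and Ndufb11, a subunit of respiratory complex I (0.30), were the others. On the lower side, Fbln5, a protein of elastic fibres, went from -0.37 to -0.51, Brat1 from -0.35 to -0.48 and Elf4 from -0.23 to -0.32. Cpe, the carboxypeptidase that trims peptide hormones, went from -0.43 to -0.49, and Srrm3, a splicing regulator, from -0.29 to -0.34. Car4, a membrane carbonic anhydrase of the brush border, read 10.23, 11.24 and 10.45 on control and 9.95, 9.97 and 9.63 on quercetin. It had the larger difference with control array 2, -0.79 ± 0.19 against -0.49 ± 0.12 without it. With all arrays, the second probe set of Tmed4 differed by -0.02, that of Cpe by 0.16, and the 3 others of Brat1 by -0.08 to 0.08.

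Differences were small for most genes. The median over the 12393 genes was -0.02, and 5325 of them (43.0%) were higher on quercetin. Only 10 genes differed by more than 1 on the log2 scale, and 6 without control array 2. These 10 are named here for their size, after their values were seen. Among them, Defa31, a Paneth cell defensin, had its difference (1.59 ± 1.42) from quercetin array 3 alone, at 10.22 against 5.55 to 5.74 on the other 5 arrays. Car1, a carbonic anhydrase typical of the colon, likewise had its difference (1.16 ± 0.77) from quercetin array 2 alone, at 10.17 against 6.04 to 6.83. Such values describe 1 pool each. The predicted gene Gm9222 behaved more evenly, with 5.41, 5.18 and 5.42 on control and 6.07, 7.04 and 7.12 on quercetin (1.41 ± 0.22, limma adjusted p = 0.0577). It was also higher on quercetin in POR-null ileum, by 0.99 ± 0.22. The ectoenzyme gene Enpp3 was high on control array 2 alone (9.49 against 6.78 to 7.65 on the other arrays). Its difference was -1.12 with that array and -0.43 without it. The others were Gas5, Hspa1b, Ada, Cyp2b10, Me1 and Fgf15.

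Ribosomal protein genes were higher on quercetin nearly throughout. Of 43 measured members of the cytosolic ribosome, 42 had a positive difference, with a median of 0.27, against -0.02 over all genes. None passed the adjusted threshold. In 30 of the 43 the quercetin arrays lay above all controls, against 5.24% of all genes, and 34 were higher at an unadjusted p under 0.05, against 629 of 12393 genes (5.08%). Without control array 2 the median was 0.18 with 41 members higher, and 20 had an unadjusted p under 0.05, against 431 of all genes (3.48%). Control array 2 was the lowest of the 6 arrays for 37 of the 43 genes, against 18.9% of all genes. In POR-null ileum the median of the same genes was 0.02.

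The mean level of the ribosomal list, after centring each gene on its mean over the 12 arrays, was -0.02, -0.29 and -0.13 on control arrays 1 to 3 and 0.06, 0.16 and 0.11 on quercetin arrays 1 to 3. The POR-null arrays ran from -0.03 to 0.06. Control arrays 2 and 3 lay below the POR-null range, control array 1 just inside its lower end, and the quercetin arrays above it, array 1 only just. Rps19, a small-subunit protein whose human gene is mutated in Diamond-Blackfan anaemia, read 10.28, 9.97 and 10.02 on control and 10.47, 10.62 and 10.62 on quercetin (0.48 ± 0.10, and 0.42 without control array 2). Rps18, on the head of the small subunit, read 11.56, 11.06 and 11.20 on control and 11.63, 11.83 and 11.76 on quercetin (0.47 ± 0.12, and 0.36 without control array 2), and its 5 other probe sets lay between -0.10 and 0.39. In both genes control array 1 stood nearest the quercetin arrays. Rpl11, which can hold the p53 regulator MDM2 when ribosome assembly is disturbed, read 10.54, 9.93 and 10.28 on control and 10.66, 10.64 and 10.68 on quercetin. Its difference was 0.41 ± 0.12, and 0.25 without control array 2. Further examples are Rpl27a (0.45 ± 0.14), Rpl27 (0.37 ± 0.10), Rps7 (0.36 ± 0.11), Rps3a1 (0.34 ± 0.10), Rpl6 (0.33 ± 0.09) and Rpl8 (0.29 ± 0.07). The smallest differences belonged to Rpl39 (-0.01 ± 0.07), Rps27 (0.05 ± 0.08), Rps6 (0.06 ± 0.17) and Rpl14 (0.06 ± 0.08), each of which overlapped between diets.

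**Figure D3:**
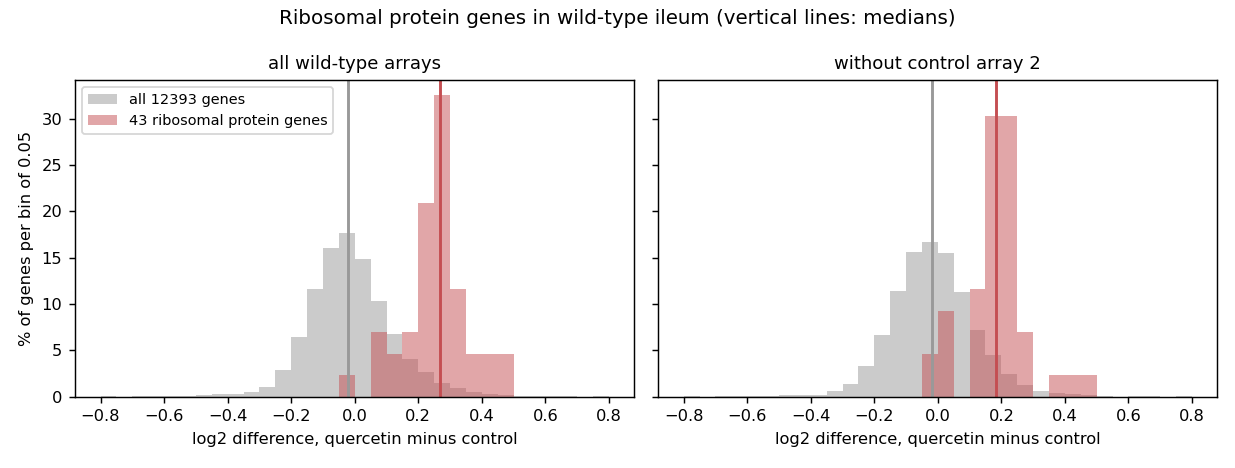
Share of genes (vertical axis, % per bin) by log2 difference, quercetin minus control (horizontal axis), for all 12393 genes in grey and the 43 ribosomal protein genes in red, with all wild-type arrays (left) and without control array 2 (right); vertical lines mark the medians. The ribosomal median is 0.27 on the left and 0.18 on the right, against -0.02 for all genes in both.

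Most ribosomal probe sets were bright, 34 of 43 with a mean level of at least 10, so bright genes were looked at separately. The 457 other genes of that brightness had a median difference of -0.02, and in 19 of them (4.16%) all quercetin arrays lay above all controls. For 14 ribosomal genes the probe set had the suffix x or s, which marks probes that can match related transcripts such as processed pseudogenes. The other 29 genes had a median of 0.28, with 28 higher. In 19 of the 29 all quercetin arrays lay above all controls, against 5.24% of all genes. How far the values of this subset rest on the control array most often lowest for ribosomal genes was not tested.

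Genes of ribosome assembly and RNA processing leaned the same way in wild type, less evenly. Of 29 genes of ribosomal RNA synthesis and the nucleolus, 22 were higher, with a median of 0.13, and 9 of them at an unadjusted p under 0.05 (5.08% of all genes were). Polr1c, a subunit shared by RNA polymerases I and III, read 6.35, 6.32 and 6.18 on control and 6.54, 6.81 and 6.58 on quercetin (0.36 ± 0.09). Ncl, nucleolin, read 8.92, 8.22 and 8.55 on control and 9.02, 9.01 and 9.02 on quercetin (0.45 ± 0.13, and 0.28 without control array 2). The quercetin arrays of Ncl were level while the controls were spread, with array 2 lowest, and the 3 other probe sets of the gene differed by 0.09 to 0.65. Fbl, the methyltransferase fibrillarin, did not overlap either (0.32 ± 0.12), whereas for Npm1, nucleophosmin, control array 1 was above quercetin array 2 (0.41 ± 0.14). Without control array 2 the median was 0.03 and the count at an unadjusted p under 0.05 was 3, against 3.48% of all genes. Without quercetin array 1 that count was 5 (5.16% of all genes). Control array 2 was the lowest of the 6 arrays for 22 of the 29 genes.

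Among 32 hnRNP and splicing factor genes, 28 were higher, with a median of 0.20 (0.12 without control array 2). None passed, and 9 were higher at an unadjusted p under 0.05, against 5.08% of all genes. The count was 2 without control array 2 (3.48% of all genes), 18 without control array 1 (7.72%) and 5 without quercetin array 3 (4.26%). For 24 of the 32 control array 2 was the lowest. Beside Hnrnpd the smallest p belonged to Hnrnpm (0.35 ± 0.11), to Sfpq, a paraspeckle protein (0.34 ± 0.12), and to Hnrnpdl (0.32 ± 0.12). Other probe sets ran from -0.11 to 0.18 for Sfpq and from 0.03 to 0.46 for Hnrnpdl. The 4 members lower on quercetin were Tra2a (-0.29 ± 0.17), Hnrnpl (-0.11 ± 0.18), Hnrnpul1 (-0.10 ± 0.11) and Hnrnpc (-0.03 ± 0.09), and all overlapped between diets. Of 23 genes that host small nucleolar RNAs, Gas5 included, 18 were higher, with a median of 0.12 (0.07 without control array 2, and 0.21 without control array 1). At an unadjusted p under 0.05, 9 were higher (5.08% of all genes), and 3 without control array 2 (3.48%). That array was the lowest for 15 of the 23 genes. Rps3, Rpl13a, Rpl7a, Rps2 and Rpsa are also in the ribosomal list, and Ncl and Fbl are named above, so the lists share members. Snhg8 read 7.24, 6.91 and 7.13 on control and 7.48, 7.55 and 7.32 on quercetin (0.36 ± 0.09). Snhg1, the host of a whole series of such RNAs, read 6.94, 5.93 and 6.46 on control and 6.97, 6.65 and 6.98 on quercetin. Its control array 1 lay within the quercetin range (0.42 ± 0.19, and 0.17 without control array 2). Snhg5 (0.02 ± 0.13) and Snhg6 (0.07 ± 0.26) overlapped, and Taf1d was lower (-0.20 ± 0.08).

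The mTOR pathway, which controls growth and the translation of ribosomal protein mRNAs, showed no common direction. Of its 22 measured genes, Deptor included, 11 lay above 0 and 10 below it, and the median was 0.00. Eif4ebp1, a translational repressor that mTOR phosphorylates, differed by -0.38 ± 0.17 (-0.21 without control array 2). Rheb, the small GTPase that activates the pathway, differed by 0.19 ± 0.10 and Eif4ebp2 by 0.16 ± 0.08.

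Genes of DNA replication and mitosis were higher in 37 of 49 members with a median of 0.16, and this depended on control array 2. Without it 28 were higher, the median was 0.01 and the members higher at an unadjusted p under 0.05 went from 7 (5.08% of all genes) to 3 (3.48%). That count was 15 without control array 1 (7.72% of all genes) and 3 without quercetin array 3 (4.26%). Control array 2 was the lowest array for 39 of the 49 genes. Mcm6, a subunit of the replicative helicase, read 7.14, 6.64 and 6.82 on control and 7.39, 7.17 and 7.78 on quercetin (0.58 ± 0.16, and 0.47 without control array 2). Mcm5 (0.35 ± 0.11), Cdt1, a licensing factor (0.34 ± 0.10), and Rrm2, a subunit of ribonucleotide reductase (0.28 ± 0.10), were also higher, while the other probe sets of Cdt1 differed by -0.05 and 0.11. Crypt stem cell and Wnt target genes had no common direction, with 10 of 18 higher and a median of 0.02. Axin2, a feedback target of Wnt signalling, read 8.11, 7.79 and 7.91 on control and 8.14, 8.46 and 8.04 on quercetin (0.28 ± 0.13), and its second probe set differed by -0.09.

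B cell and plasma cell genes were higher in 15 of 22 members, with a median of 0.13 that was 0.12 without control array 2. None passed, and 6 were higher at an unadjusted p under 0.05, against 5.08% of all genes. Without control array 1 the median was 0.08 and the count 3 (7.72% of all genes), and without control array 3 the count was 10 (4.51%). Beside Cd79b, Ms4a1, the pan-B-cell surface protein CD20, read 6.59, 6.86 and 7.19 on control and 6.97, 7.51 and 7.66 on quercetin (0.50 ± 0.17). Cxcr5, the receptor that brings B cells into follicles, read 4.88, 4.83 and 4.84 on control and 5.07, 5.06 and 5.17 on quercetin (0.25 ± 0.07). Igha, the constant region of IgA, read 10.17, 10.08 and 10.73 on control and 11.22, 10.66 and 11.10 on quercetin (0.67 ± 0.24). Of these 3, only Cxcr5 had no overlap. The 7 lower members included Prdm1, the plasma cell regulator BLIMP1 (-0.25 ± 0.18), the complement receptor gene Cr2 (-0.10 ± 0.12), Irf4 (-0.10 ± 0.07) and Pax5, which keeps B cell identity (-0.08 ± 0.08). In whole scrapings, fewer or more cells of a type and less or more RNA per cell cannot be told apart. The list level was -0.20, -0.07 and 0.09 on control and 0.08, 0.07 and 0.21 on quercetin, and the POR-null arrays ran from -0.14 to 0.14. In POR-null ileum the B cell genes had a median of -0.09, with Cd79b at -0.49 and Ms4a1 at -0.42.

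Other blood cells gave mixed values. MHC class II genes were higher in 9 of 11 members with a median of 0.16, or 0.05 without control array 2. H2-Aa read 12.43, 11.60 and 11.89 on control and 12.07, 12.27 and 12.55 on quercetin (0.32 ± 0.24), which overlapped. T cell and intraepithelial lymphocyte genes had 15 of 26 members higher (median 0.06), with Gzma, a granule protease of cytotoxic lymphocytes, at 0.52 ± 0.27 and the integrin gene Itgae, which anchors lymphocytes in the epithelium, at 0.39 ± 0.20. Control array 2 was the lowest array for 15 of these 26 genes. Myeloid genes were split 13 to 11. In 6 of the 24 all quercetin arrays lay below all controls (7.93% of all genes), and in 1 above (5.24%). Lyz2, macrophage lysozyme, read 8.72, 8.04 and 8.48 on control and 9.31, 8.53 and 9.41 on quercetin (0.67 ± 0.26), which overlapped. Cd14, a co-receptor for bacterial lipopolysaccharide, was lower (-0.26 ± 0.09). Of 13 mast cell genes 12 were lower by small amounts, with a median of -0.09 and Tpsb2, a tryptase, at -0.21 ± 0.09 and 0.00 on its second probe set.

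Tuft cells are rare chemosensory cells of the epithelium that release IL-25 when they sense parasites or succinate. All 12 measured tuft cell genes were lower on quercetin, with a median of -0.25, and none passed. In 5 the quercetin arrays lay below all controls, against 983 of 12393 genes (7.93%). At an unadjusted p under 0.05, 6 were lower, against 661 of 12393 genes (5.33%). Sucnr1, the succinate receptor, read 4.37, 5.43 and 4.59 on control and 4.21, 4.08 and 3.89 on quercetin (-0.74 ± 0.23). Dclk1, the standard tuft cell marker, read 4.89, 6.01 and 5.06 on control and 4.78, 4.74 and 4.43 on quercetin (-0.67 ± 0.24). Avil, an actin-binding protein of the tuft, read 6.62, 7.42 and 6.79 on control and 6.42, 6.16 and 6.24 on quercetin (-0.67 ± 0.19). In each of them control array 2 stood far above the rest, and the groups did not overlap. Without that array the differences were -0.42 for Sucnr1, -0.325 for Dclk1 and -0.43 for Avil. Alox5ap, needed for leukotriene synthesis, overlapped (-0.76 ± 0.34, and -0.33 without control array 2). Trpm5, the cation channel of taste signalling, differed by -0.34 ± 0.12 (-0.03 on its second probe set) and Siglecf, which eosinophils also carry, by -0.44 ± 0.16. Pou2f3, the factor that specifies tuft cells, differed by only -0.06 ± 0.07, and Gfi1b by -0.05 ± 0.11.

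Without control array 2 the tuft median was -0.16, 11 of 12 members were lower, and 2 had an unadjusted p under 0.05, against 568 of 12393 genes (4.58%). Without quercetin array 3 that count was 3 (3.41% of all genes). Control array 2 was the highest of the 6 for 10 of the 12 genes. The list level was 0.01, 0.52 and 0.12 on control and 0.00, -0.18 and -0.22 on quercetin, so that control array 1 and quercetin array 1 were level. The POR-null arrays ran from -0.20 to 0.20.

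The largest purine differences belonged to Ada, Nt5e and Gda. Ada, adenosine deaminase, read 10.96, 12.41 and 12.26 on control and 10.75, 10.13 and 11.12 on quercetin (-1.21 ± 0.33, and -0.94 without control array 2). Control array 1 was below quercetin array 3, so the groups overlapped. Nt5e, the ectoenzyme CD73 that makes adenosine from AMP, read 8.08, 8.81 and 8.16 on control and 7.87, 7.51 and 7.49 on quercetin (-0.73 ± 0.17, and -0.50 without control array 2). Ampd3, AMP deaminase, differed by -0.36 ± 0.14 and Uox, which oxidises uric acid, by -0.29 ± 0.11, both without overlap. Together with Gda these were the 5 of 15 members lower at an unadjusted p under 0.05, against 5.33% of all genes. The remaining 10 lay between -0.12 (Xdh) and 0.26 (Adk, adenosine kinase). Xdh, the xanthine oxidase that quercetin inhibits as a protein, read 10.28, 10.35 and 9.90 on control and 9.93, 9.98 and 10.25 on quercetin (-0.12 ± 0.12), and Pnp, which releases guanine from guanosine, differed by 0.00 ± 0.11. Over the 15 genes the median was -0.07, and -0.04 without control array 2. Without that array 4 members were lower at an unadjusted p under 0.05, against 4.58% of all genes. It was the highest array for 7 of the 15 genes, against 20.2% of all genes. In POR-null ileum Ada was 0.62 and Nt5e 0.24 higher on quercetin.

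**Figure D4:**
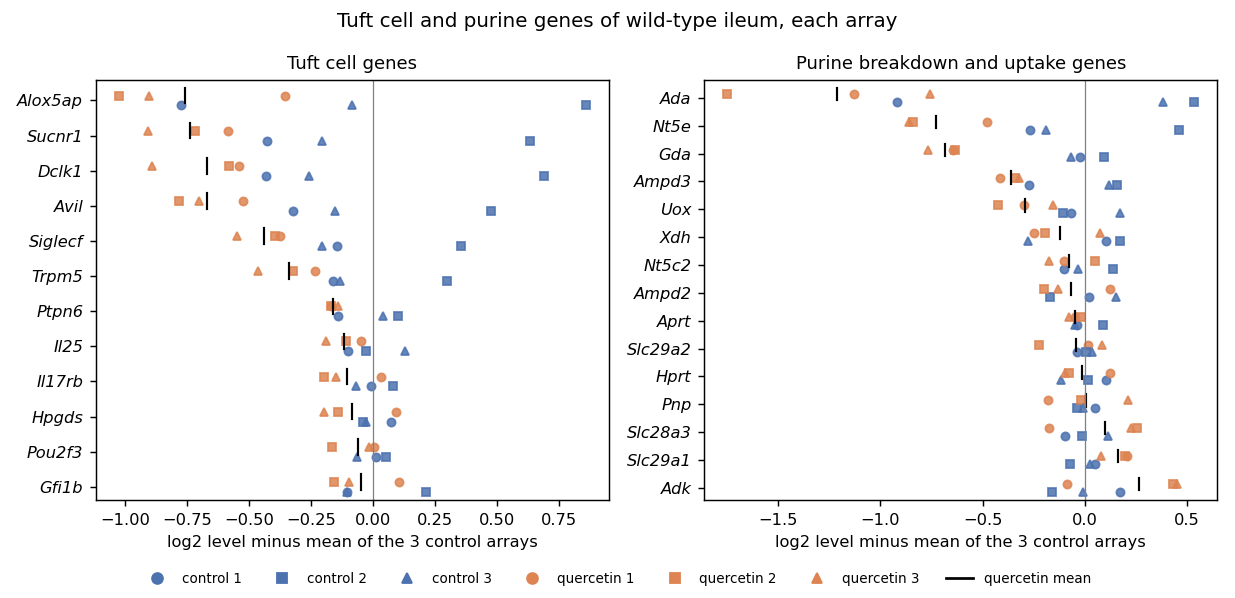
Log2 level minus the mean of the 3 control arrays for 12 tuft cell genes (left) and 15 purine genes (right), by array, with black bars for the quercetin mean. Control array 2 (blue squares) is the highest array for 10 of the 12 tuft cell genes, while Gda keeps all 3 controls together above the quercetin arrays.

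Of 19 heat shock chaperone genes 13 were lower, beside 43.0% of all genes higher and so most lower. The median was -0.14, or -0.18 without control array 2 and -0.06 without quercetin array 1. At an unadjusted p under 0.05, 6 were lower (5.33% of all genes), with 3 without control array 2 (4.58%), 1 without control array 3 (5.37%) and 2 without quercetin array 1 (6.57%). Hspa1b, an inducible HSP70, read 7.04, 8.79 and 8.65 on control and 6.29, 7.33 and 6.47 on quercetin (-1.46 ± 0.54), which overlapped through control array 1. Its neighbour Hspa1a read 4.21, 4.93 and 4.79 on control and 3.90, 4.11 and 4.04 on quercetin (-0.63 ± 0.23). Dnajb1 differed by -0.26 ± 0.09, and Hspa4, a nucleotide exchange factor, was the main member on the other side (0.31 ± 0.10), though its 2 other probe sets differed by -0.11 and 0.05. The POR-null median was similar, at -0.12.

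Immediate early genes, which react within minutes to growth and stress signals, were lower in 22 of 30 members with a median of -0.10. Without control array 2 the median was -0.09. Over all genes 43.0% were higher and the median was -0.02. At an unadjusted p under 0.05, 6 members were lower (5.33% of all genes), and 4 without control array 2 (4.58%). Errfi1, a feedback inhibitor of the EGF receptor, read 9.11, 8.61 and 8.49 on control and 8.29, 8.02 and 8.08 on quercetin (-0.61 ± 0.16). Atf3, a stress-induced transcription factor, read 8.61, 9.00 and 8.41 on control and 7.94, 8.04 and 8.15 on quercetin (-0.63 ± 0.18). Neither gene overlapped between diets, and without control array 2 the differences were -0.67 for Errfi1 and -0.47 for Atf3. Dusp6, which switches off ERK, differed by -0.49 ± 0.17. Among 25 genes of the unfolded protein response 16 were lower (median -0.03). Ppp1r15a, which restarts translation by dephosphorylating eIF2α, read 7.36, 7.64 and 7.26 on control and 6.94, 6.96 and 6.91 on quercetin (-0.48 ± 0.11). Chac1, a target of the ATF4 stress pathway, differed by -0.35 ± 0.11.

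The NF-kB and cytokine list, Socs3 included, had 20 of 30 members lower with a median of -0.04, near the -0.02 of all genes. At an unadjusted p under 0.05, 4 were lower (5.33% of all genes) and 2 higher (5.08%). The counts were the same without control array 2 (4.58% and 3.48%). In 4 members all quercetin arrays lay below all controls (7.93% of all genes), and in 1 above (5.24%). Ptgs2, cyclooxygenase 2, read 4.31, 4.26 and 4.42 on control and 4.16, 4.0 and 4.03 on quercetin (-0.27 ± 0.08), and Ccl2, a chemokine for monocytes, read 5.26, 5.37 and 5.31 on control and 5.07, 5.16 and 5.07 on quercetin (-0.21 ± 0.06). Both were dim and did not overlap. Ccl25, the chemokine that calls lymphocytes to the small intestine, was higher (0.21 ± 0.07). Of 33 interferon response genes 23 were lower with a median of -0.04, while over all genes 43.0% were higher. The smallest p belonged to Oasl2, at 8.08, 8.80 and 8.26 on control and 7.70, 7.57 and 7.83 on quercetin. Its difference was -0.68 ± 0.18, and -0.47 without control array 2. Oasl1 was next (-0.48 ± 0.13, and -0.39 without it).

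The lists tied most directly to quercetin handling had medians near 0. Of 16 genes of glucuronidation, sulfation and methylation, 8 were higher, with a median of 0.01 (0.08 without control array 2). The exception by size was Ugt2b5, a glucuronosyltransferase, at 5.75, 4.89 and 5.38 on control and 5.87, 6.30 and 5.91 on quercetin (0.69 ± 0.17, and 0.46 without control array 2). Sulfotransferase Sult1d1 was next (0.26 ± 0.13), with quercetin array 1 at 9.94 and the other quercetin arrays at 9.44 and 9.59. Flavonoid transport and deglycosylation genes were split 8 to 8 (median -0.01). Abcg2, an efflux pump that carries quercetin conjugates, read 10.56, 10.39 and 10.47 on control and 10.56, 10.73 and 10.73 on quercetin (0.20 ± 0.08), and the related pump gene Abcc1 differed by 0.17 ± 0.08.

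Receptor target lists had medians near 0 as well. The 9 aryl hydrocarbon receptor targets had a median of 0.01 (-0.05 without control array 2). None reached an unadjusted p under 0.05, against 5.08% of all genes higher and 5.33% lower. With only 9 genes that count says little. Cyp1a1, its classic target, read 5.93, 6.70 and 6.21 on control and 6.02, 5.87 and 6.09 on quercetin (-0.29 ± 0.15, and -0.08 without control array 2). Of 24 Nrf2 antioxidant targets 11 lay above 0 and 13 below (median -0.04), and the canonical target Nqo1 differed by -0.05 ± 0.08. Gpx2 and Me1, which had the smallest p, were lower, and the next, Ephx1, was higher (0.20 ± 0.09). In 3 members all quercetin arrays lay above all controls (5.24% of all genes), and in 3 below (7.93%). Gpx2, the glutathione peroxidase of the gut, read 11.35, 11.73 and 11.24 on control and 11.10, 10.53 and 10.67 on quercetin (-0.67 ± 0.15, and -0.53 without control array 2). Me1, malic enzyme, read 7.37, 9.03 and 7.81 on control and 7.35, 6.82 and 6.75 on quercetin (-1.10 ± 0.31, and -0.62 without control array 2). Among 20 glutathione S-transferase genes 15 were lower (median -0.08), while microsomal Mgst1 was higher (0.36 ± 0.11) and had a second probe set at -0.13. Among 31 xenobiotic P450 genes 20 were lower (median -0.06). Cyp2b10 ranged over the arrays, with 7.49, 9.40 and 7.52 on control and 8.31, 6.70 and 5.84 on quercetin (-1.19 ± 0.58, and -0.56 without control array 2), and Cyp2c29 differed by -0.45 ± 0.16.

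Bile acid genes were led by Fgf15, the hormone that ileal enterocytes send to the liver when bile acids arrive. It read 6.64, 6.63 and 6.63 on control and 7.01, 8.88 and 7.77 on quercetin (1.25 ± 0.44, the same without control array 2), with no overlap but a wide spread on quercetin. Without quercetin array 2 the difference was 0.76 ± 0.40. In POR-null ileum, where the controls ran from 5.31 to 7.20, it was -0.91 ± 0.44, and the test of the interaction was not passed (limma adjusted p = 0.357). Nr1h4, the bile acid receptor FXR that drives Fgf15, read 8.22, 7.92 and 8.01 on control and 8.47, 8.56 and 8.43 on quercetin (0.44 ± 0.12). Nr0b2, the repressor SHP and another FXR target, differed by -0.19 ± 0.13, and over 13 genes of bile acid sensing and transport the median was 0.08. Of 18 ileal segment genes 15 were higher (median 0.14, and 0.09 without control array 2), among them Cubn, the receptor for the vitamin B12 carrier, at 11.48, 11.69 and 11.43 on control and 11.80, 11.98 and 11.74 on quercetin (0.31 ± 0.10). The proximal segment list had a median of -0.08 that turned to 0.07 without control array 2. Ccl25 is counted in both segment lists, and the hormone gene Gip is in the ileal one. Neither list was checked against samples of known segment.

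Lipid gene values varied with that same array. Of 23 genes of fatty acid uptake and triglyceride synthesis 18 were lower with a median of -0.12, and without control array 2 the count was 12 and the median 0.00. It was the highest array for 14 of the 23 genes. Apob, the structural protein of chylomicrons, was an exception, at 11.29, 11.03 and 11.13 on control and 10.40, 10.84 and 10.40 on quercetin (-0.60 ± 0.24, and -0.66 without control array 2). Plin3, a lipid droplet coat protein, read 10.55, 10.66 and 10.49 on control and 10.30, 10.37 and 10.40 on quercetin (-0.21 ± 0.07). Apoa4, another chylomicron protein, overlapped (-0.44 ± 0.20). Cholesterol synthesis genes were lower in 13 of 19 members (median -0.11, and -0.05 without control array 2), with Tm7sf2, a sterol reductase, at -0.35 ± 0.10. Among LXR targets Abca1, which exports cholesterol to lipoproteins, read 6.37, 5.61 and 6.13 on control and 6.79, 6.58 and 6.93 on quercetin (0.73 ± 0.31), but its 2 other probe sets differed by -0.09 and 0.04. Npc1, which releases cholesterol from lysosomes, differed by -0.42 ± 0.13. Fatty acid oxidation genes were higher in 20 of 29 members by little (median 0.06, and 0.10 without control array 2), with Hadha, the trifunctional enzyme, at 0.24 ± 0.11.

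Of the 48 lists described, ribosomal proteins had the highest median and tuft cells the lowest. They were also the lists in which control array 2 was most often the end array, at 86.0% of members lowest and 83.3% highest.

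**Figure D5:**
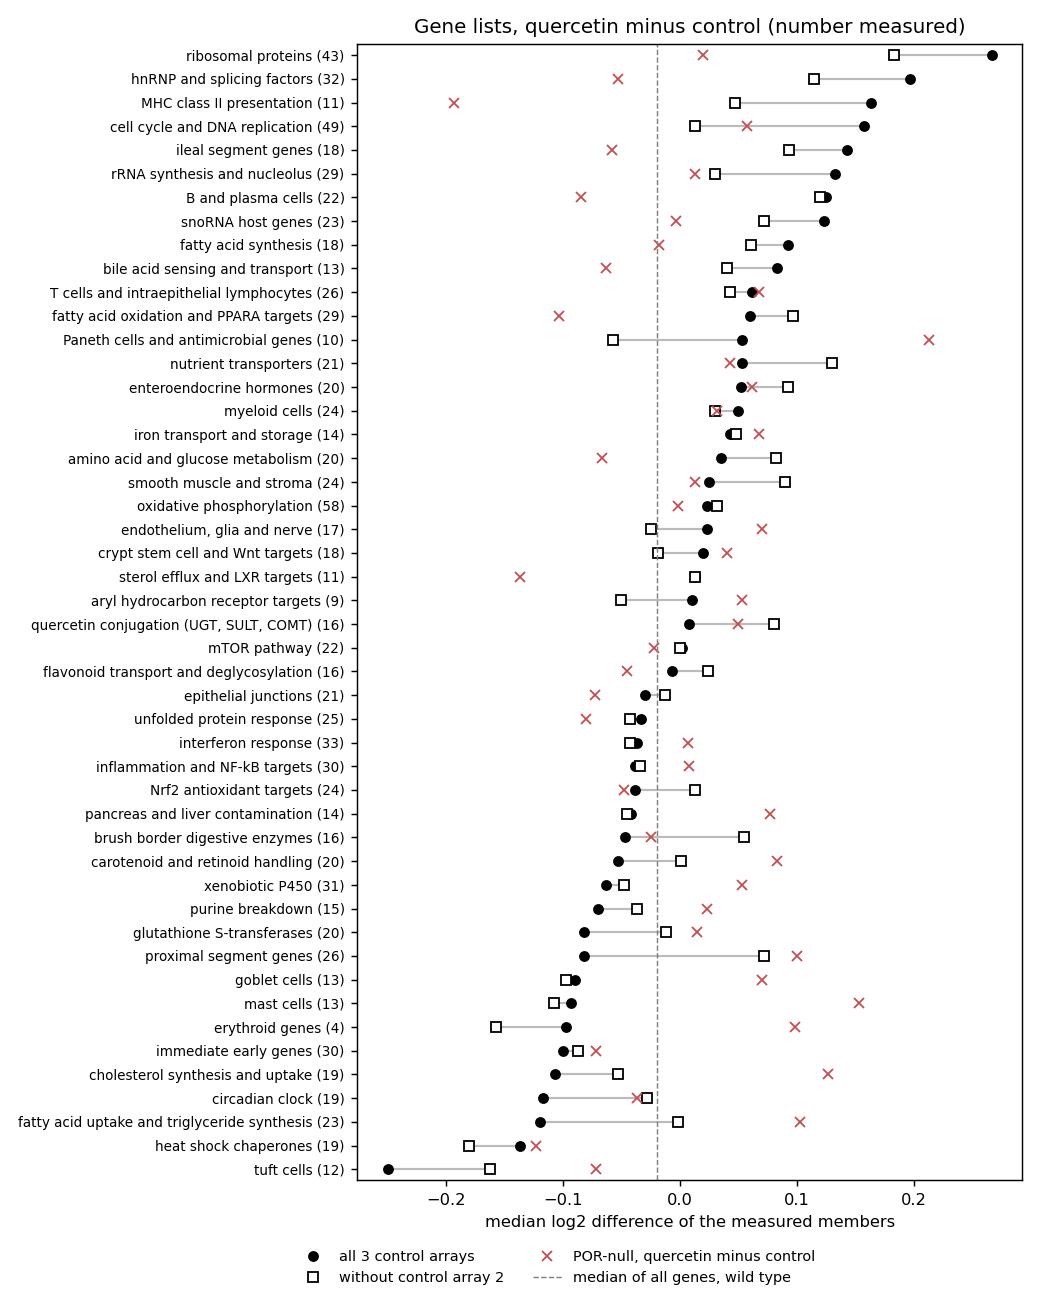
Median log2 difference, quercetin minus control (horizontal axis), of the measured members of each of 48 gene lists, with all arrays (filled circles), without control array 2 (open squares) and in POR-null ileum (crosses). The ribosomal median is 0.27, 0.18 and 0.02 and the tuft cell median -0.25, -0.16 and -0.07 in that order; the dashed line marks the median of all genes, -0.02.

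The wild-type difference was last set against that of POR-null ileum, whose quercetin arrays were compared with their own controls. No probe set passed the test of the interaction (limma, 0 of 22626, 0.0%, with 2332 at an unadjusted p under 0.05 and a lowest adjusted p of 0.0917). For Gas5 the difference was 1.18 in wild type and 0.02 in POR-null, and for Cd79b 0.81 and -0.49, each with an interaction at a limma adjusted p of 0.0917. For Hnrnpd the values were 0.77 and -0.08 (0.241) and for Gda -0.68 and -0.16 (0.351). The 24 genes above were chosen for their wild-type values, so their smaller values in POR-null ileum, from 0.00 to 0.49 in size, are a description. No difference between the genotypes in their response to quercetin was shown by this test.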

How the data were processed

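Total RNA of pooled ileal scrapings was hybridised to Affymetrix 430A arrays. For every probe set the authors deposited a log2 level per array. MAS5 and RMA appear in the submitters' processing notes, which give no role or version. Array medians lay between 5.91 and 5.96, and the values were used without another normalization. The 64 array controls among 22690 probe sets were set aside. The platform annotation gave 1 symbol to 20380 of the rest, several to 691 and none to 1555; 20351 of those with 1 symbol were found by gene ID in RefSeq's GRCm38.p6 table, which served for names and start sequences only.

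The linear model, run in R 4.3.3 with limma 3.58.1, had 1 mean for each of the 4 groups and 8 residual degrees of freedom. It was tested on simulated data, and the Benjamini-Hochberg adjustment ran over 22626 probe sets. The median SE of a difference was 0.0886, and the number of arrays limits the precision. Nothing in the labels says that array numbers pair the diets, and same-numbered arrays did not deviate together (r from -0.03 to 0.05), so arrays were treated as unpaired. Named genes were the 12 of smallest p per direction, 6 more per direction without control array 2, and up to 4 per list, without predicted genes. The 48 lists (1225 names, 1040 measured entries, 976 genes) are described by counts and medians, with no test. The comparison, the gene lists and the rules were chosen with earlier results of these data known. Alternatives were quantile normalization, median centring, filters on dim probe sets, trend and robust eBayes, weighted arrays, a replicate block, only the 6 wild-type arrays, gene means, another threshold and leaving out each array; the list counts without each array and the ribosomal list without x or s probe sets were added after the data were seen. The reductase gene itself was not analysed here, so genotype labels were not checked against it. Summaries and figures used pandas 2.3.3 and matplotlib 3.10.9 under Python 3.11.15.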

Additional observations from a re-analysis of the deposited data

How the results depend on the processing

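The number of probe sets past an adjusted p of 0.05 in wild type was 1 by limma with quantile normalization, median centring, array weights or only probe sets above the median level, and Gas5 was that probe set each time. It was 7 with only probe sets above the lower quartile of level and 7 with trend and robust eBayes, 5 with the replicate block (Apoe, Cd79b, Gas5, Gda and Hnrnpd), 2 with only the wild-type arrays (Gas5 and Ifi202b) and 13 at a threshold of 0.1. Leaving out each array gave 1 to 59, the highest without wild-type control replicate 1. Of 12 such fits all kept the Gas5 probe set. Averaging the probe sets of a gene gave 0 by limma (1375 genes at an unadjusted p under 0.05), and the Gas5 difference was then 0.81. The interaction count of 0 became 2 with trend and robust eBayes, 3 with the replicate block, 2 at a threshold of 0.1 and 0 to 9 when single arrays were left out, again highest without wild-type control replicate 1. The cause of these changes was not tested. The labels do not say that the array numbers pair the diets, so the block is a description.

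Of 4357 values of the 210 named genes, 4325 kept their direction and side of the threshold and 25 passed in place of not passing. The remaining 7 were the Gas5 mean above and 6 that changed sign. Leaving out single arrays, Lyz1 was -0.075 without wild-type control replicate 2 and above 0 without any other array, Nqo1 ran from -0.085 to 0.005 and Slc4a1 from -0.112 to 0.018, highest without control replicate 1, and Hba-a1 from -0.185 to 0.05, highest without quercetin replicate 3. As means of all probe sets, Eif4ebp2 was -0.058 and Cela3b 0.022. List medians without control replicate 2 are given beside the lists.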

Other observations

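Secretory and hormone genes gave a few further values. Sst, the somatostatin gene of enteroendocrine D cells, read 7.15, 6.77 and 6.98 on control and 7.35, 7.82 and 7.41 on quercetin (0.56 ± 0.15, and 0.46 without control array 2), with no overlap, in a list of 20 hormone genes of which 14 were higher (median 0.05). Goblet cell genes were lower in 9 of 13 members (median -0.09), with Clca1, a mucus-processing protein, at 12.41, 12.47 and 12.28 on control and 12.18, 12.25 and 11.99 on quercetin (-0.25 ± 0.10). Paneth cell and antimicrobial genes had a median of 0.05 that was -0.06 without control array 2, on which the lysozyme gene Lyz1 read 10.90 against 12.23 to 12.82 on the other 5 arrays. Reg3a, an antibacterial lectin, was higher (0.42 ± 0.17).

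Among epithelial junction genes Cldn4, a claudin that tightens the paracellular seal, read 9.26, 9.97 and 9.67 on control and 8.72, 8.96 and 8.83 on quercetin (-0.80 ± 0.21, and -0.63 without control array 2). In POR-null ileum it was also lower, by -0.50, while over the 21 junction genes the median was -0.03. Tfrc, the transferrin receptor, read 9.00, 9.02 and 8.83 on control and 9.20, 9.43 and 9.20 on quercetin (0.33 ± 0.10), but its 2 other probe sets differed by -0.06 and 0.06. Fbp1, an enzyme of gluconeogenesis, read 7.81, 7.70 and 7.42 on control and 7.99, 8.04 and 8.14 on quercetin (0.41 ± 0.13). Bhlhe40, a clock and hypoxia-responsive repressor, read 8.03, 8.50 and 7.83 on control and 7.53, 7.80 and 7.30 on quercetin (-0.58 ± 0.17), and 14 of 19 clock genes were lower (median -0.12, and -0.03 without control array 2). None of these genes passed the adjusted threshold by limma.

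Lists with medians close to that of all genes were oxidative phosphorylation (0.02 over 58 genes, 37 higher), brush border enzymes (-0.05 over 16, but 0.06 without control array 2), nutrient transporters (0.05 over 21, and 0.13 without it), smooth muscle and stroma (0.03 over 24), endothelium, glia and nerve (0.02 over 17) and pancreas and liver genes (-0.04 over 14). The smooth muscle level ran from -0.43 to -0.11 on control and from -0.43 to 0.19 on quercetin, and the diets overlapped.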
